A study of Mus musculus with 32 samples.

Results

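The nuclear tRNA gene loci of mouse were compared between wild-type brain and wild-type liver by ATAC-seq, which reads out open chromatin from where the Tn5 transposase can cut. All 401 of 401 loci in the deposited tables were members, and no locus was chosen by its value. The series holds 32 libraries of brain and liver from wild-type mice and from mice lacking single tRNA-Phe genes, and 8 of them were compared here. These were 5 brains (libraries 1, 2, 3, 16 and 18) and 3 livers (libraries 1, 3 and 24) of wild-type mice that carry every tRNA-Phe gene. The mice were young adults on a C57BL/6N background. The study's methods describe males matched by age and litter to the knockouts, and also state that mice from different litters were used. Its ATAC-seq methods state no sex. Libraries 1, 2 and 3 belong to batch 1 and libraries 16, 18 and 24 to batch 2 per the labels, so both batches hold both tissues. Nuclei came from pieces of whole tissue, so each library mixes the cell types of its organ. A locus open in more of the cells and a locus more open in each cell cannot be told apart in such libraries.

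Transfer RNAs carry amino acids to the ribosome, and the 3 bases of the anticodon decide which codons a tRNA reads. Mammalian genomes hold many gene copies for most anticodons. RNA polymerase III transcribes them from promoter elements inside the gene, and copies that are in use lie in open chromatin. Loci are named here by amino acid (the isotype), anticodon, isodecoder family (copies with the same tRNA body) and copy number within the family, so that tRNA-Ile-TAT-2-1 is the first copy of the second family reading with TAT.

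Copies of one anticodon can be nearly the same in sequence, and the tRNA-Phe-GAA loci, the targets of the study's knockouts, show how close. The stretch below is the target that 1 guide of the study cut at all 7 of these loci. It is shown because several of these 7 loci differ between brain and liver further on, although all share it letter for letter. The capitals mark the anticodon GAA at positions 11 to 13 counted from the 5′ end, and the PAM, the short motif that Cas9 needs beside its target.
tRNA-Phe-GAA-1-1 to 1-5, 2-1 and 3-1: gcgttagactGAAgatctaaAGG

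The deposited tables hold reads of short, nucleosome-free fragments divided by 1 factor per library, and whole reads were recovered from them and scaled to a common level over the 8 libraries. The values below are these normalised reads in a window of the gene and 50 nt on each side, so levels of different loci are per window and not per length. The brains held 20315 to 26689 reads over all tRNA loci and the livers 7895 to 9739, a mean of 58.6 reads per locus in brain and 22.4 in liver. Counts of a few reads are therefore less precise in liver. Brains 3 and 18, and likewise livers 3 and 24, differed by less than the sampling noise (chi-square per degree of freedom 0.741 and 0.744), and each pair, called linked below, was counted as 1 sample in every mean ± SD, which leaves n = 4 brains and n = 2 livers. The tests used all 8 libraries, and the values with each pair averaged are given where a call rests on it. The study describes the control libraries of a tissue as coming from separate mice. Brain 18 and liver 24 carry the same mouse name, WT6, in the column names, and brains and livers 1 and 3 share numbers, so values with each such number as a block are given where the block ends a call. The tissues were checked on marker genes in consensus peaks, which pool wild-type and tRNA-Phe-2-1 knockout libraries of a tissue and so do not check single libraries. Of the promoters of 6 brain marker genes in the RefSeq table, 5 lay in a consensus brain peak and 1 (Syt1, a synaptic vesicle gene) in a liver peak. The promoters of all 5 liver marker genes lay in a liver peak and 0 in a brain peak.

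Most of the tRNA loci with enough reads to test differed between the tissues, in both directions. At 245 of the 401 loci the mean of the brain mean and the liver mean reached 10 normalised reads, and a test was made. A locus low in 1 tissue can pass by its level in the other alone, and such loci are among the largest differences below. Of the 245 loci, 179 differed (limma with the batch as a covariate, Benjamini-Hochberg adjusted p under 0.05, 73.1% of the loci tested). Accessibility was higher in brain at 93 loci (38% of those tested) and higher in liver at 86 (35.1%). The median log2 difference, brain minus liver, was 0.02, which the scaling sets, since size factors place the typical locus near 0. At 161 of the loci tested the brain and liver libraries did not overlap at all (65.7%), with brain above at 82 and liver above at 79. Of the called loci, 32 were at least 2-fold higher in brain and 29 in liver, and 10 and 6 were at least 4-fold higher. The profiles of the tissues differed more than those of libraries of 1 tissue. When every library was thinned to the same 7895 reads, a median of 22.8% of the reads lay on different loci between a brain and a liver (range 21.9% to 23.7% over 15 pairs). The same median was 9.78% between brains and 10.1% between livers.

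The split by direction moves with the scaling and is no measure of balance between the tissues. With equal totals over the tRNA loci in place of size factors, 103 loci were higher in brain and 72 in liver, and the median log2 difference was 0.10. In batch 2 alone, where a single liver stands against 2 brains and is assumed to vary as they do, 97 and 66 were called. With each linked pair averaged, 168 loci were called, 164 of them among the 179. Leaving out liver 24 gave 144 calls. A further wild-type liver of batch 2, liver 22, differed from liver 1 by less than the sampling noise (chi-square per degree of freedom 0.440) and was left out of the comparison, and 176 loci were called with it added. A further set of 3 wild-type livers stood apart from livers 1, 3 and 24 (chi-square per degree of freedom 2.19 to 2.59 against them). They come from another table of the series, and their column names hold no sample number of the labels. They belong to batch 3, which holds no brain. In fits with them, which have no batch term, tissue and batch cannot be told apart. With these further livers in place of livers 1, 3 and 24, 158 loci were called, and 123 of them were among the 179. Of the 179 calls, 149 had the same sign in every alternative fitted, and 87 were called in every one.

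**Figure D1:**
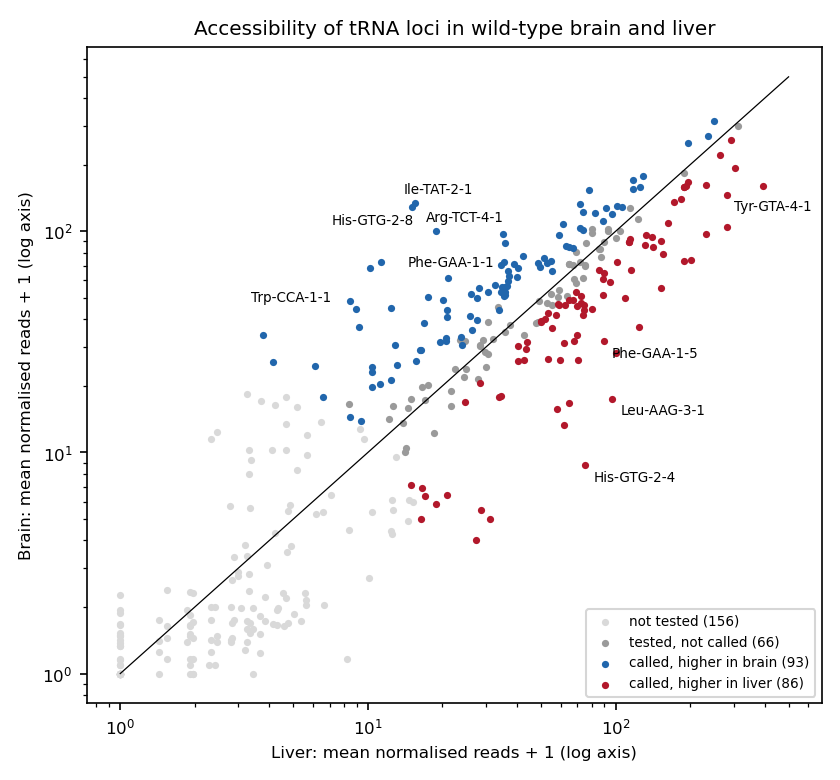
Mean normalised reads + 1 in liver (horizontal, log axis) and brain (vertical, log axis), 1 point per locus, with linked libraries averaged. Blue and red points are the 93 and 86 loci called higher in brain and in liver, dark grey points were tested and not called, light grey points are the 156 loci too low to test, and the line marks equal levels. Levels in the tissues rise together, and called loci lie on both sides of the line at every level.

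The remaining 156 loci were too low to test. Of all 401 loci, 21 had no read in any of the 8 libraries, 16 had reads in brain alone, 5 in liver alone and 359 in both, and 277 had reads in every library. Without a test, brain lay above liver with no overlap at 13 of the untested loci, and liver above brain at 20. The brains are sequenced more deeply, so the number of loci with reads was compared after thinning to 7895 reads. At least 1 read was found at 304.7 to 314.1 loci (median 310) in brain and at 323 to 332.4 (median 328.4) in liver, as means over 20 draws, so the ranges did not overlap. For at least 5 reads the medians were 245.3 in brain and 237 in liver. Liver thus had more loci with single reads and brain more with several, whereas without thinning the medians for at least 1 read were 338 and 336.

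Reads were a little more concentrated in liver, also at equal depth. The 10 loci with most reads held 14.4% to 14.9% of the reads of a brain and 16.5% to 17.5% of those of a liver, and the 100 loci with most reads held 68.3% to 69.1% and 72.3% to 73.3%. Thinned to 7895 reads (means over 20 draws), the ranges were 14.5% to 14.9% and 16.5% to 17.5% for the 10, and 68.7% to 69.4% and 72.4% to 73.3% for the 100, with no overlap between tissues. Across the 245 tested loci the mean log2 levels of brain and liver had a Pearson correlation of 0.66 and a Spearman correlation of 0.71, given as a description of loci that share libraries.

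Loci of tyrosine tRNAs were among the highest in both tissues, beside loci of arginine and glutamate tRNAs in brain and of histidine and arginine tRNAs in liver. In brain the order was tRNA-Tyr-GTA-3-1, Tyr-GTA-2-1, Arg-ACG-1-3, Tyr-GTA-3-2 and Glu-TTC-2-2, at 313, 299.8, 268, 257 and 249 normalised reads on average. The brain libraries of neighbours in this order overlapped, except between the second and the third. In liver the order was tRNA-Tyr-GTA-4-1, Tyr-GTA-2-1, His-GTG-2-3, Tyr-GTA-3-2 and Arg-TCG-1-1, at 393, 310.4, 302, 292 and 281, and only the first stood clear of the others in every liver.

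The liver's leading locus was far lower in brain. At tRNA-Tyr-GTA-4-1 the brains held 151, 178, 162, 154 and 139 normalised reads and the livers 394, 401 and 382. Every liver lay above every brain, and the log2 difference was -1.31 ± 0.068 (SE; adjusted p = 2.02e-10). tRNA-Tyr-GTA-2-1, the second in both tissues, held 307, 283, 311, 303 and 301 in brain and 295, 342 and 309.9 in liver, which overlapped, and the difference of -0.07 ± 0.059 (SE; adjusted p = 0.331) was not called. tRNA-Arg-TCG-1-1 averaged 104 ± 4.47 (SD, n = 4) in brain and 281 ± 3.54 (SD, n = 2) in liver, a log2 difference of -1.41 ± 0.072 (SE; adjusted p = 2.02e-10).

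The largest differences towards brain were found at single copies of isoleucine, alanine, histidine, arginine, tryptophan and threonine tRNAs. The 10 loci with the largest difference among called loci without overlap were tRNA-Ile-TAT-2-1, Ala-TGC-6-1, His-GTG-3-1, Ala-CGC-1-1, Arg-TCT-4-1, His-GTG-2-8, Ala-AGC-10-1, Trp-CCA-1-1, Thr-TGT-1-1 and Thr-CGT-3-1, with log2 differences from 3.79 down to 2.18. All 10 were called in every alternative that tested them.

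At tRNA-Ile-TAT-2-1, a copy of an isoleucine tRNA that reads the codon ATA, the brains held 134, 149, 122, 112 and 114 normalised reads and the livers 23.5, 4.36 and 5.16. The lowest brain was several times the highest liver, and 1 liver stood above the other two. The means were 128 ± 16.7 (SD, n = 4) and 14.1 ± 13.3 (SD, n = 2), and the log2 difference was 3.79 ± 0.33 (SE; adjusted p = 6.31e-08).

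tRNA-Arg-TCT-4-1 is an arginine tRNA gene known for its expression in the nervous system. Its brains held 124, 151, 106, 135 and 141 normalised reads and its livers 16.3, 15.3 and 10.3, so the tissues were far apart. The mean was 9.16 times that of liver, and the log2 difference was 3.16 ± 0.16 (SE; adjusted p = 2.02e-10). The other tRNA-Arg-TCT loci did not share this. tRNA-Arg-TCT-1-1 was higher in liver (30.1 against 60.9, log2 difference -0.98 ± 0.15 (SE; adjusted p = 4.21e-05)), and so was 2-1 (-0.69, adjusted p = 0.0463 by limma), whose libraries overlapped and whose call was lost in most alternatives. tRNA-Arg-TCT-3-1 held 53.02 and 58.2 and was not called, and 5-1, untested, held 3.92 in brain and 13.5 in liver with every liver above every brain.

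Both histidine loci among the 10 held few reads in some livers. tRNA-His-GTG-3-1 held 22.6, 32.5, 26.4, 19.7 and 22.04 normalised reads in brain and 5.42, 0 and 1.72 in liver. tRNA-His-GTG-2-8 held 88.3, 108, 99.3, 97.2 and 107 in brain and 25.3, 15.3 and 5.16 in liver, and its livers differed by several fold among themselves. The log2 differences were 3.30 ± 0.47 (SE; adjusted p = 1.66e-05) and 2.91 ± 0.27 (SE; adjusted p = 1.52e-07), and that of 2-8 was 2.27 in batch 1 alone and 4.15 in batch 2 alone.

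Alanine tRNAs gave 3 of the 10, from 3 anticodons. tRNA-Ala-TGC-6-1 held 32.9 ± 5.40 (SD, n = 4) normalised reads in brain and 2.78 ± 1.18 (SD, n = 2) in liver. tRNA-Ala-CGC-1-1 held 67.3 ± 3.46 (SD, n = 4) and 9.18 ± 7.47 (SD, n = 2), and tRNA-Ala-AGC-10-1 71.6 ± 9.77 (SD, n = 4) and 10.3 ± 3.27 (SD, n = 2). Their log2 differences were 3.31, 3.27 and 2.89, with limma adjusted p of 6.88e-08, 8.65e-08 and 4.09e-09. tRNA-Trp-CCA-1-1, the copy of the tryptophan tRNA that differed most, held 43.8, 52.1, 47.3, 35.5 and 39.8 in brain and 10.8, 6.54 and 3.44 in liver, a log2 difference of 2.63 ± 0.24 (SE; adjusted p = 8.83e-08).

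The largest differences towards liver were of like size and again fell on single copies. The 10 loci chosen the same way were tRNA-His-GTG-2-4, Lys-CTT-3-6, Leu-AAG-3-1, Gly-GCC-1-1, Gln-CTG-1-1, Ser-AGA-2-3, Arg-ACG-3-2, Val-CAC-2-2, Cys-GCA-1-2 and Tyr-GTA-1-5, with log2 differences from -3.19 to -1.89. Each was called in every alternative that tested it, although tRNA-Val-CAC-2-2, with 3.98 and 15.3 normalised reads (means with linked libraries averaged, where the filter used all 8 libraries apart), passed the filter on low values in only 15 of 28.

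At tRNA-His-GTG-2-4 the brains held 5.31, 11.6, 8.54, 5.91 and 7.82 normalised reads and the livers 63.3, 87.2 and 84.3, a mean 9.60 times higher in liver and a log2 difference of -3.19 ± 0.27 (SE; adjusted p = 4.48e-08). Histidine copies thus stood at both ends of the range. At tRNA-Leu-AAG-3-1, a leucine tRNA, the brains held 17.9, 18.4, 12.4, 17.1 and 12.8 and the livers 97.6, 91.5 and 96.4, and the log2 difference was -2.54 ± 0.19 (SE; adjusted p = 1.22e-08). These livers lay close together and far above every brain. tRNA-Ser-AGA-2-3 held 12.3 ± 1.34 (SD, n = 4) in brain and 61.04 ± 1.93 (SD, n = 2) in liver, tRNA-Tyr-GTA-1-5 27.1 ± 0.875 (SD, n = 4) and 99.04 ± 22.4 (SD, n = 2), and tRNA-Lys-CTT-3-6 3.03 ± 1.37 (SD, n = 4) and 26.2 ± 8.93 (SD, n = 2).

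**Figure D2:**
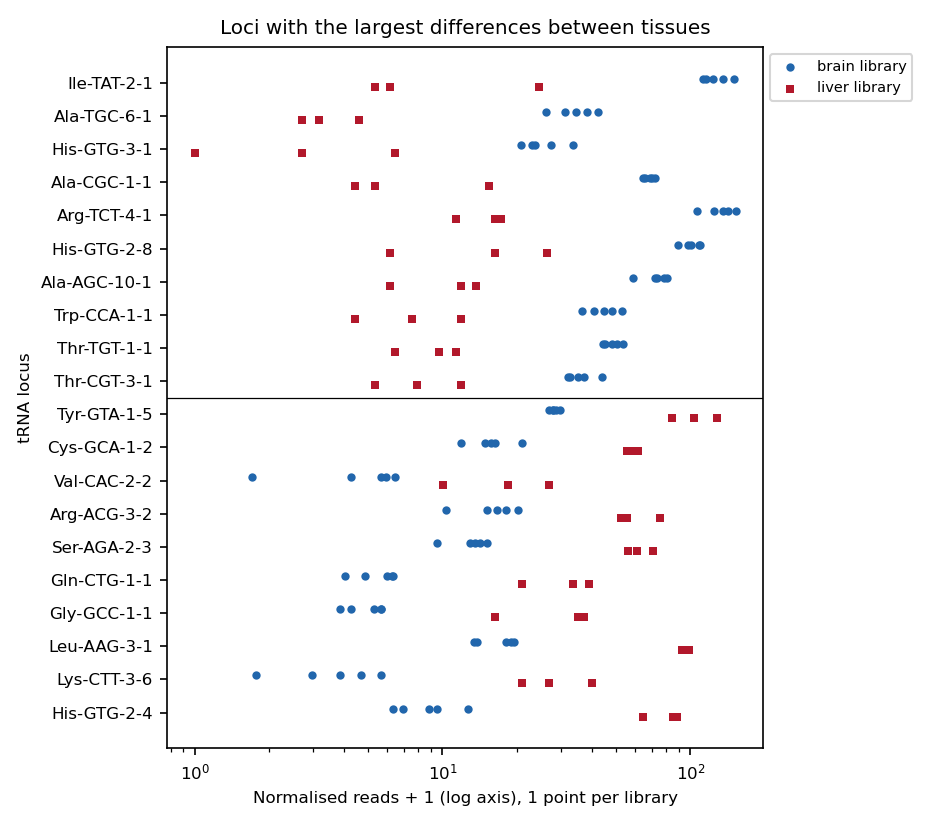
Normalised reads + 1 (horizontal, log axis) at the 10 loci with the largest difference in each direction, 1 point per library, blue circles for the 5 brains and red squares for the 3 livers. At each of the 20 loci the tissues do not overlap, which the choice of loci requires, and the spread among livers is widest at loci with few reads.

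Sums over the copies of an anticodon differed less between the tissues than single loci did. The median size of the log2 difference was 0.55 over the 245 loci, 0.26 over the sums of 47 anticodons and 0.16 over the sums of 22 isotypes, and 0 sums of either kind differed 2-fold or more, against 62 loci. With equal totals and in batch 2 alone 1 anticodon sum passed 2-fold (Ala-TGC, log2 difference 1.01 and 1.07), and with the 3 further livers Gly-CCC (1.07) and SeC-TCA (-1.11) did. Summed over all loci, the differences in normalised reads came to 6981 reads regardless of sign. After summing by anticodon 47.2% of this remained, and after summing by isotype 31.1%. Summing any loci that differ in both directions gives a fall, since opposite differences cancel and noise of single loci averages out. Sums of unrelated loci were not compared, so nothing particular to anticodons or isotypes is read from the fall. At equal depth the share of reads on different anticodons had a median of 10.1% between tissues, 4.19% between brains and 3.85% between livers. The sums thus still differed beyond the compared libraries of a tissue, linked pairs included.

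Many anticodons held copies called in each direction. Of 46 anticodons with 2 or more loci tested, 33 held at least 1 locus called higher in brain and at least 1 called higher in liver, 13 held calls in 1 direction and 0 held none. With 38% of all tested loci called higher in brain and 35.1% in liver, anticodons with several tested loci will often hold both, so this count is a description and nothing particular to anticodons is read from it. Among the 33, the sum was not called in 13, was higher in brain in 5 and higher in liver in 15. The initiator methionine tRNA, which starts every protein, is one of the 13. tRNA-iMet-CAT-1-1 and 1-6 were higher in brain (log2 differences 0.55 and 0.80) and 1-4, 1-2 and 1-7 in liver (-0.78, -0.60 and -0.49). The call of 1-7 was lost with the replicate number as a block (limma adjusted p = 0.0587). Their sum, with the 4 untested copies, was 353 ± 19.7 (SD, n = 4) in brain and 357 ± 11.5 (SD, n = 2) in liver, a log2 difference of -0.01 ± 0.054 that was not called. The untested tRNA-iMet-CAT-3-1 held 13.3, 23.3, 15.5, 11.8 and 16.4 in brain and 5.42, 0 and 0 in liver.

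The use of a locus is its difference relative to the other tested copies of its anticodon. It was called at 155 of 244 loci (limma diffSplice, Benjamini-Hochberg adjusted p under 0.05, 63.5%), at 75 towards brain and 80 towards liver. With equal totals 156 were called, 154 of them among the 155, and with cyclic loess, which scales by level, 150 with 136 among them. Because use is relative, a change at 1 copy moves the use of the others, and a call need not come from the locus itself. Brain used tRNA-Arg-TCT-4-1 (3.73), Ile-TAT-2-1 (3.46), His-GTG-3-1 (3.37), His-GTG-2-8 (2.92) and Thr-TGT-1-1 (2.89) the most over liver, in log2 against their other copies. Liver used tRNA-His-GTG-2-4 (-4.19), Lys-CTT-3-6 (-2.98), Gln-CTG-1-1 (-2.57), Leu-AAG-3-1 (-2.51) and Ile-TAT-1-1 (-2.37) the most over brain. The last of these differed by only -0.58 in its own level. On simulated reads the use test called loci with few reads too often. With each locus weighted by the spread at its level, an alternative chosen after this was seen, 170 loci were called, 147 of them among the 155.

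In 31 of the 46 anticodons the same locus held the most reads in both tissues, and in 15 a different one led. In 5 of the 15 the leading locus was the same in every library of its tissue among the 8 compared. These were Phe-GAA (1-1 in brain, 1-5 in liver), Arg-ACG (1-3 and 3-1), Asp-GTC (2-1 and 1-7), Ile-AAT (1-4 and 1-3) and iMet-CAT (1-1 and 1-4). In the 3 further livers the liver locus led in every library in only 1 of the 5, Ile-AAT. It led in 2 of these livers in iMet-CAT and in 0 in Phe-GAA, Arg-ACG and Asp-GTC. For Arg-ACG the locus leading in brain, 1-3, had at least as many reads as any other in every further liver. For Asp-GTC the locus leading in brain, 2-1, did so in some of them. In Arg-TCT the leading copy of brain, 4-1, held 55.4% of the anticodon's reads there and 8.32% in liver, and that of liver, 1-1, held 34.9% in liver and 12.6% in brain, although 1-1 led in only 2 of the 3 livers.

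**Figure D3:**
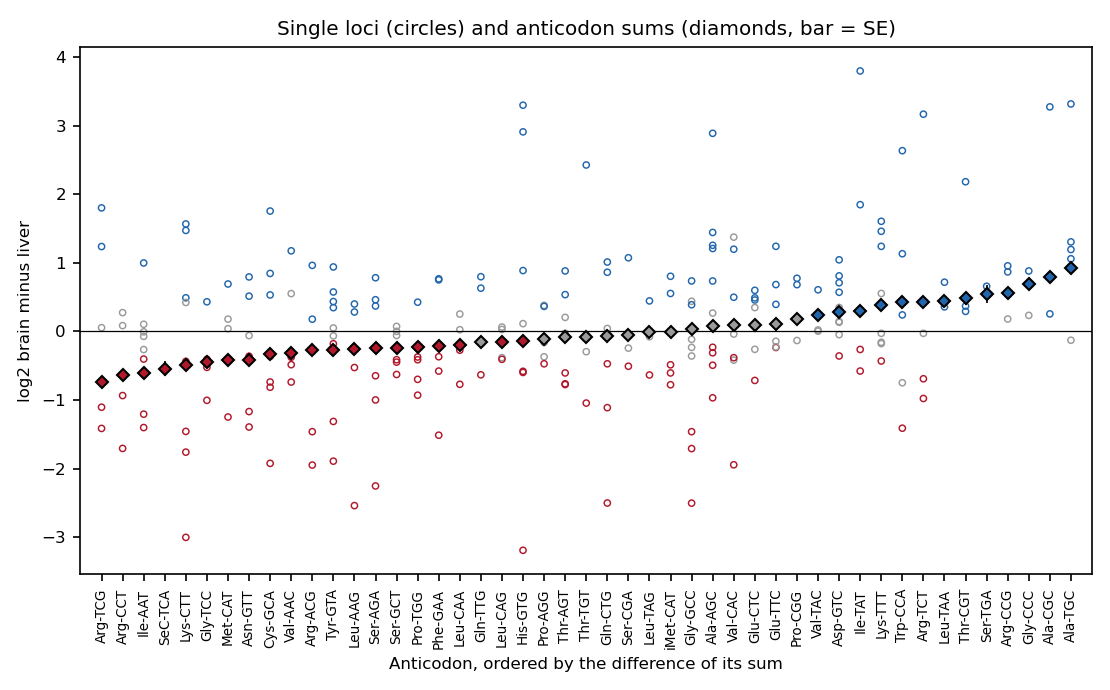
Log2 difference, brain minus liver, of the 47 anticodon sums (diamonds, with a bar of 1 SE that is often smaller than the symbol) and of the tested loci of each anticodon (circles), ordered by the sum. Blue marks calls higher in brain, red calls higher in liver and grey no call. The sums stay between -0.73 and 0.93 while single loci reach from -3.19 to 3.79, on both sides of 0 in most anticodons.

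The tRNA-Phe-GAA loci, which carry phenylalanine, divided their reads differently in the tissues. Of the tRNA-Phe reads of a library, tRNA-Phe-GAA-1-1 held 23.2, 23.00, 24.1, 27.97 and 22.03% in the brains and 10.1, 11.97 and 14.1% in the livers. tRNA-Phe-GAA-1-3 held 20.05, 21.8, 20.1, 19.3 and 21.04% and 12.4, 9.86 and 9.19%. At both, every brain lay above every liver. tRNA-Phe-GAA-1-5 held 12.2, 10.6, 11.9, 11.1 and 11.9% in the brains and 27.2, 32.4 and 27.6% in the livers, with every liver above every brain by a wide gap.

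An exact permutation test (two-sided) gave p = 0.0179 for each of these 3 loci, the smallest that 5 against 3 libraries can give, and 0.0357 for tRNA-Phe-GAA-3-1, with means of 10.6% and 13.7%. Adjusted over the 7 loci these were 0.0417 and 0.0625. At 3-1 the same test gave 0.190 with liver 22 added (means of 10.3% and 12.3%) and 0.0286 to 0.0952 with single libraries left out. It gave 0.0179 with the 3 further livers in place. The shares of tRNA-Phe-GAA-1-2, 1-4 and 2-1 overlapped between tissues. With the 3 further livers in place, 1-4 held a mean of 26.4% in liver against 14.4% in brain and 1-5 13.6% against 11.5% (exact permutation p = 0.0179 and 0.232, two-sided). With linked libraries averaged, 4 against 2, the exact test cannot go below 0.0667, which all 4 loci reached. The livers held 142 to 185 tRNA-Phe reads each and the brains 328 to 426. In levels, tRNA-Phe-GAA-1-1 and 1-3 were higher in brain (log2 differences 0.77 and 0.75) and 1-5, 3-1 and 1-4 in liver (-1.51, -0.58 and -0.37), and the sum was higher in liver (-0.21 ± 0.053 (SE; adjusted p = 0.00371)). With linked libraries averaged the call of 1-4 was lost (limma adjusted p = 0.05305), and with the replicate number as a block those of 1-4 (0.121) and of the sum (0.0705). The 3 further livers did not share the difference at 1-5, whose log2 difference was 0.06 with them, nor in the sum (0.26), nor in the share of 1-3 (a difference of -0.47 percentage points), while the log2 difference of tRNA-Phe-GAA-1-1 with them was 1.74.

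**Figure D4:**
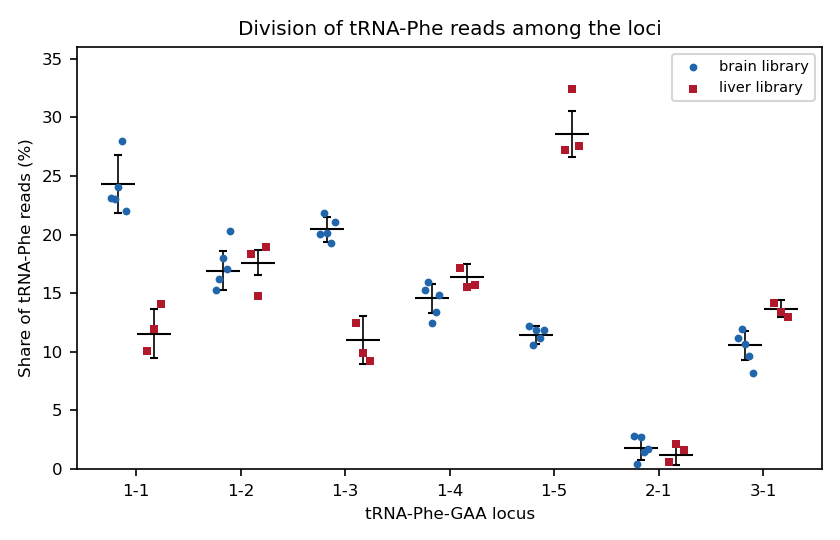
Share of a library's tRNA-Phe reads (vertical, percent) at each of the 7 tRNA-Phe-GAA loci, 1 point per library, blue circles for brain and red squares for liver. Bars are the mean and SD with linked libraries averaged (n = 4 brains, n = 2 livers). The libraries of the tissues do not overlap at 1-1, 1-3, 1-5 and 3-1.

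Of the sums over an anticodon, 33 of 47 were called (70.2%), 13 higher in brain and 20 in liver. The sums with the largest difference towards brain belonged to 2 alanine anticodons, Ala-TGC (338 ± 12.6 (SD, n = 4) against 185 ± 29.4 (SD, n = 2) normalised reads, log2 difference 0.93 ± 0.081 (SE; adjusted p = 2.79e-06)) and Ala-CGC (211 against 119, 0.79 ± 0.06 (SE; adjusted p = 1.42e-06)). The third alanine anticodon, Ala-AGC, was not called (0.08 ± 0.052). Brain was also higher at Gly-CCC (0.69), Arg-CCG (0.56), Ser-TGA (0.55), Thr-CGT (0.48), Leu-TAA (0.45), Arg-TCT (0.43), Trp-CCA (0.43), Lys-TTT (0.38), Ile-TAT (0.29), Asp-GTC (0.29) and Val-TAC (0.25). Anticodons of the same amino acid parted here, since Lys-CTT was higher in liver (-0.49) and Lys-TTT in brain, and Ile-AAT higher in liver (-0.60) and Ile-TAT in brain.

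Arginine anticodons lay on both sides. Arg-TCG was higher in liver (237 ± 7.10 (SD, n = 4) against 394 ± 9.89 (SD, n = 2), log2 difference -0.73 ± 0.049 (SE; adjusted p = 7.11e-07)), as were Arg-CCT (-0.64 ± 0.058 (SE; adjusted p = 3.18e-06)) and Arg-ACG (-0.27), while Arg-CCG and Arg-TCT were higher in brain. Further sums higher in liver were SeC-TCA (-0.54), Gly-TCC (-0.44), Met-CAT (-0.42), Asn-GTT (-0.42), Cys-GCA (-0.32), Val-AAC (-0.32), Tyr-GTA (-0.26), Leu-AAG (-0.25), Ser-AGA (-0.25), Ser-GCT (-0.23), Pro-TGG (-0.23), Phe-GAA (-0.21), Leu-CAA (-0.20), Leu-CAG (-0.16) and His-GTG (-0.14). The split of 13 to 20 rests on the scaling and was 17 to 16 with equal totals. The calls of Leu-CAA, Leu-CAG, Ser-AGA and His-GTG were lost with it (adjusted p = 0.0745, 0.206, 0.0728 and 0.325 by limma). With linked libraries averaged the calls of Leu-CAA, Ser-AGA and His-GTG were lost too (limma adjusted p = 0.0508, 0.0568 and 0.0770). With the replicate number as a block the calls of Phe-GAA, Leu-CAA, Leu-CAG and His-GTG were lost (limma adjusted p = 0.0705, 0.0705, 0.111 and 0.111) and that of Pro-TGG stood at the threshold (0.05). With cyclic loess those of Arg-ACG, Tyr-GTA, Val-TAC, Leu-CAA and His-GTG were lost (limma adjusted p = 0.201, 0.633, 0.120, 0.107 and 0.766), and in batch 2 alone, with a single liver, that of Arg-ACG among others (0.0553). With the 3 further livers Phe-GAA, Ser-GCT, Ser-TGA and Val-TAC changed sign, and the log2 difference of Arg-TCG was -0.12 (limma adjusted p = 0.0388). The highest sums were those of Tyr-GTA, Ala-AGC and His-GTG in both tissues.

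By amino acid, every brain held a larger share of its tRNA reads than every liver on Ala, Thr, Trp, Glu and Asp loci, and every liver a larger share on Arg, Tyr, Asn, Cys, Met and SeC loci. Alanine loci held 8.84, 8.63, 8.87, 8.82 and 8.56% of all tRNA reads in the brains and 7.01, 6.32 and 6.27% in the livers. Tryptophan loci held 2.87, 2.85, 2.84, 2.87 and 2.90% and 1.94, 2.13 and 1.97%. Arginine loci held 10.5, 10.5, 10.3, 10.4 and 10.6% in the brains and 11.96, 11.97 and 11.7% in the livers. Each of the 11 isotypes had an exact permutation p of 0.0179 (two-sided; 0.0357 adjusted over the 22 isotypes). With linked libraries averaged it was 0.0667 for each, the smallest that 4 against 2 can give, so these calls are lost. Thr and Glu were not called in normalised reads.

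In normalised reads, 12 of 22 isotype sums were called (54.5%), 3 of them higher in brain: Trp (log2 difference 0.43 ± 0.05 (SE; adjusted p = 8.11e-10)), Ala (0.34 ± 0.049 (SE; adjusted p = 6.68e-08)) and Asp (0.29 ± 0.051 (SE; adjusted p = 3.49e-06)). The 9 higher in liver were SeC (-0.54), Met (-0.42), Asn (-0.42), Cys (-0.32), Arg (-0.27), Tyr (-0.26), Phe (-0.21), Ile (-0.17) and His (-0.14). The highest sums were those of Arg, Ala and Leu in brain and Arg, Tyr and Leu in liver. The split is 5 to 7 with equal totals, 5 to 9 with TMM scaling and 4 to 3 in batch 2 alone, where 7 isotypes were called with a single liver. With the 3 further livers Phe was higher in brain (0.26, adjusted p = 0.00885 by limma) and Ile was 0.09. With cyclic loess the call of Tyr was lost (-0.03, limma adjusted p = 0.514) and His was 0.02. The calls of Ile and His were lost with equal totals (limma adjusted p = 0.0894 and 0.286).

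**Figure D5:**
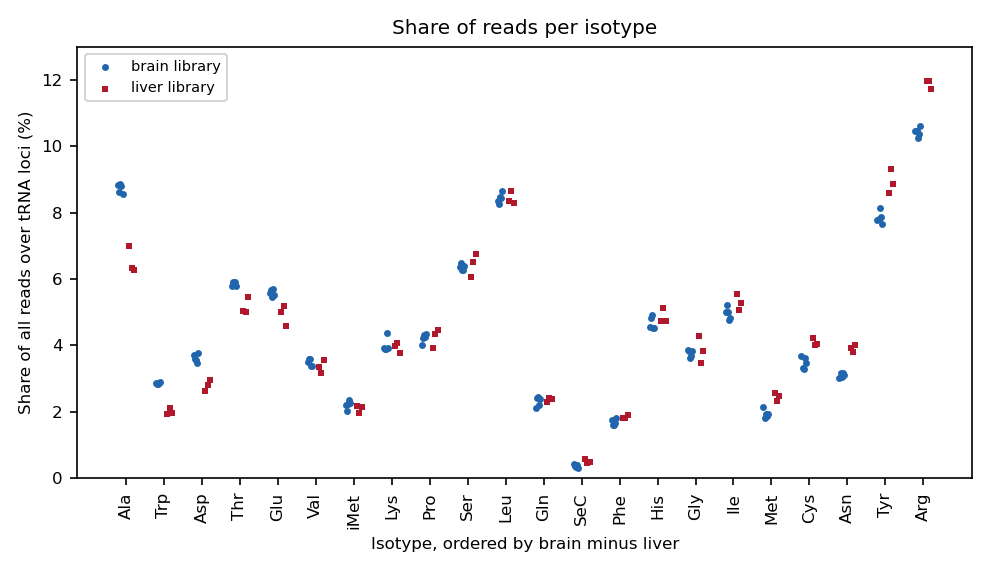
Share of all reads over tRNA loci (vertical, percent) by isotype, ordered by brain minus liver, 1 point per library, blue circles for the 5 brains and red squares for the 3 livers. Ala, Thr, Trp, Glu and Asp lie higher in every brain, and Arg, Tyr, Asn, Cys, Met and SeC in every liver.

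Isotypes differed in how many of their loci had enough reads to test. Closed loci and near-identical copies whose reads were removed by the mapping quality filter cannot be told apart here. Of 54 cysteine loci 7 were tested, and all 7 were called, 3 higher in brain and 4 in liver, where 73.1% of all tested loci were called, 38% higher in brain and 35.1% in liver. Of the 8 tryptophan loci 7 were tested, 5 higher in brain and 1 in liver, and of 33 alanine loci 18 were tested, 12 higher in brain and 4 in liver (median log2 difference 0.93). The single selenocysteine locus, whose tRNA reads a UGA codon as selenocysteine, held 67.7, 57.6, 50.4, 64.4 and 50.5 normalised reads in brain and 97.6, 78.4 and 79.2 in liver, with every liver above every brain (log2 difference -0.54 ± 0.14 (SE; adjusted p = 0.0025)).

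Groups that share a feature of the tRNA differed little from the whole. Of the loci with an anticodon that takes the modified base queuosine (Asp, Asn, His and Tyr), 31 of 49 were tested, with 13 higher in brain, 10 in liver and a median log2 difference of 0.13, against 0.02 over all 245. Of the leucine, serine and selenocysteine loci, whose tRNAs have a long variable arm, 38 of 48 were tested, with 11 higher in brain and 14 in liver (median -0.07). Among loci with an adenosine at the wobble position, which is edited to inosine, 51 of 65 were tested, with 17 higher in brain and 22 in liver (median -0.16). The share called was 74.2%, 65.8% and 76.5%, near the 73.1% of all loci tested.

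Pooled over anticodons, loci of the first isodecoder family reached enough reads to test more often than those of later families, which is likewise a count of reads and not of openness alone. They gave 105 tested of 128 loci (82%) and later families 140 of 273 (51.3%), or 82.5% and 60.6% without the cysteine loci, a description with no test. Within the 42 anticodons that hold both, the first family had the larger share tested in 28, a later one in 6 and neither in 8. Direction did not part them, with 39 higher in brain and 38 in liver in the first family and 54 and 48 in the later ones.

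Where in the genome the differing loci lie was read from RefSeq tRNA genes on GRCm38.p6 and the deposited consensus peaks. RefSeq symbols and the locus names of the tables are not paired in the sources used here, so the positions below are those of RefSeq genes. The peaks were called on wild-type and tRNA-Phe-2-1 knockout libraries together, and they number 219157 in brain and only 108912 in liver. Whether the difference in peak number sets the counts of genes was not tested. Of 408 nuclear tRNA genes, 184 lay in a peak of both tissues, 43 in a brain peak alone, 6 in a liver peak alone and 175 in neither. Of the 43, 31 were on chromosome 13, which holds 105 of the 408 genes. Of the 5 Arg-TCT genes, n-TRtct5 (chr1:173390329-173390402) alone lay in a brain peak and no liver peak. Of the 7 Phe-GAA genes, 6 lay in a peak of both tissues, and n-TFgaa2 (chr19:12008545-12008617) in neither.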

How the data were processed

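Per the study's methods and the submitters' processing notes, ATAC-seq reads were trimmed with Trim Galore 0.6.4 and cutadapt 1.18, aligned to GRCm38.p6 with Bowtie2 2.4.1, freed of duplicates with Picard 2.23.8, filtered with SAMtools 1.10 on mapping quality, and, for nucleosome-free fragments, counted with featureCounts 2.0.0 over each high-confidence GtRNAdb tRNA gene and 50 nt on each side. A mapping quality filter can remove reads of near-identical copies, so the levels of such copies are uncertain. The signal deposited by the authors is the read count divided by 1 DESeq2 1.30.0 size factor per library, estimated within each table. Genrich 0.6 and DiffBind 3.0.8 gave the consensus peaks, of which the positions were used. The deposited tables of fold changes with their p-values and s-values were not used.

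Each column was divided by its smallest value above 0, which gave whole reads for 100% of values (tolerance 0.01), and the 5 library columns that occur in a further table held identical reads. Totals per library were 20315 to 26689 in brain and 7895 to 9739 in liver. Reads of the 8 libraries were scaled anew by median-of-ratios size factors. Loci with a mean of tissue means of at least 10 were tested with limma 3.58.1 (R 4.3.3) with trend on log2(normalised reads + 1) with the batch as a covariate, two-sided, Benjamini-Hochberg adjusted over all loci tested, threshold 0.05. A log2 difference on this scale understates the change of low loci. Sums by anticodon and isotype were fitted without trend, and use within an anticodon with diffSplice. edgeR 4.0.16 and DESeq2 1.42.0 on the recovered reads were alternatives. The fits were tested on simulated data, on which the use test called loci with few reads too often. The members and lists were chosen with earlier results of these data known. Named were the 10 called loci without overlap that differed most in each direction, the 5 highest in each tissue, the extreme called loci of anticodons called in both directions (given as counts with examples), the 5 largest changes of use in each direction, and all Phe, Arg-TCT, iMet, SeC and Trp loci, of which those not described in the text are in the counts. RefSeq genes and promoters are those of GRCm38.p6.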

Additional observations from a re-analysis of the deposited data

Results flagged for a closer look

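In 11 of 175 groups of 5 brain libraries looked at, 1 library stood apart from the other 4 by Dixon's test, which chance gives in about 1 in 20 groups. Brain 16 was apart at tRNA-Leu-TAG-3-1, a leucine tRNA locus (88.03 normalised reads, others 69.07 to 71.81), and in the sums of Lys-TTT (400.8, others 341.5 to 357.2) and of the lysine isotype (700.3, others 614.6 to 637.7). Brain 18 was apart at tRNA-Phe-GAA-1-2 (58.3, others 42.27 to 45.79) and in the sum of alanine loci (1359, others 1398 to 1411). Brain 2 was low at tRNA-iMet-CAT-1-1 (107.8, others 121.8 to 127.3) and high in the sum of Arg-ACG (658.5, others 605.7 to 613.6). Brain 1 was high in the sums of Arg-CCT (378.5, others 336.8 to 347.3) and of Met-CAT, which is also the isotype sum (337.3, others 298.3 to 309.3), and low in that of proline loci (636.1, others 680.6 to 689.8).

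By limma alone, and with a single liver in batch 2 whose spread is taken from the other libraries, the tissue difference was called as differing between batches at 3 of 245 loci (interaction of tissue and batch, adjusted p = 0.00749 for the first 2 and 0.0103 for the last, with 14 loci at an unadjusted p under 0.05), while edgeR called 0 (smallest adjusted p = 0.312), with 7 loci at an unadjusted p under 0.05, so these 3 do not hold by both tools. These were tRNA-Ala-AGC-5-1 (log2 difference larger by 2.591 in batch 2), tRNA-His-GTG-2-8 (1.801) and tRNA-Lys-CTT-3-4 (3.313). That liver held 3.44, 5.16 and 0 normalised reads at the 3 loci, below both livers of batch 1.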

How the results depend on the processing

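Of 2509 comparisons of 92 single loci with an alternative, 2314 kept their side of the threshold, 174 lost a call, 6 gained one and 15 changed sign with a call on either side. For anticodon sums these were 1079, 53, 36 and 7 of 1175, and for isotype sums 493, 15, 38 and 4 of 550. Among those that kept their side, 11, 40 and 20 changed sign without a call in either fit. With the 3 further livers in place, the log2 difference was -0.14 at tRNA-Arg-ACG-1-3, 0.92 at Asp-GTC-1-7, -0.38 at Leu-AAG-2-1, 0.14 at Lys-TTT-1-3, 0.0626 at Phe-GAA-1-5, -0.34 at Pro-AGG-1-6, 0.51 at Phe-GAA-1-2, 0.21 at Tyr-GTA-2-1, 0.0474 at Pro-AGG-1-4, 0.0292 at Thr-AGT-1-2 and -0.0317 at Trp-CCA-2-1, all opposite in sign to those with livers 1, 3 and 24. It was 0.26 for the anticodon and isotype Phe, 0.17 for Ser-GCT, -0.0833 for Ser-TGA, -0.20 for Val-TAC, 0.30 for Gln-CTG, -0.17 for Glu-TTC, -0.10 for the isotype Glu and 0.0945 for the isotype Ile, and the share of tRNA-Phe-GAA-1-3 differed by -0.47 percentage points. With cyclic loess it was 0.13 at tRNA-Tyr-GTA-3-2, 0.27 at Tyr-GTA-2-1 and 0.0178 for the anticodon and isotype His, and in batch 2 alone 0.0169 at Glu-TTC-1-4 and 0.29 at Pro-AGG-1-4. The cause was not tested in any of these cases, and with the 3 further livers tissue and batch cannot be told apart.

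Over all alternatives the number of called loci ranged from 131 of 212 (brain reads thinned to 8974, fewer loci tested) to 209 of 380 (no filter on low values), with 172 by edgeR, 136 by DESeq2 and 133 in batch 1 alone. Leaving out each library in turn gave 144 to 180 loci, 137 to 171 calls of use, 30 to 36 anticodons, 11 to 16 isotypes and 3 to 4 tRNA-Phe loci with an exact p under 0.05. In batch 2 alone, with a single liver, 7 isotypes were called, and with cyclic loess 18, against 12. The interaction of tissue and batch gave 0 calls by edgeR. Without thinning, at least 1 read was found at a median of 338 loci in brain and 336 in liver, and at least 5 reads at 280 in brain. Linked libraries averaged, and the weights on use, were chosen after seeing the data. Averaging brains 1 and 16 as well left 162 loci, 144 calls of use, 29 anticodons and 12 isotypes.

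A replicate block over brains and livers 1, brains and livers 3, and brain 18 with liver 24 (both named WT6) called 158 of 235 loci, 126 of use, 28 anticodons and 13 isotypes. Deviations of same-numbered brains and livers correlated at -0.04, -0.03 and -0.04. Most libraries of a tissue differed by about the sampling noise, which is not shared between tissues. These correlations therefore cannot decide whether same-numbered libraries come from the same mice. Among the loci of the text the block ended the calls of tRNA-Phe-GAA-1-4, iMet-CAT-1-7 and Tyr-GTA-3-2. Limma without trend was not run for use, since that test takes no trend. Depth limits liver most, with 22.4 reads per locus on average.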
